A study of Mus musculus with 16 samples.

Results

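Ovaries of mouse embryos lacking Wnt4 were set against wild-type testes of the same stage, embryonic day 14.5 (E14.5). The comparison rests on 2 arrays of knock-out (KO) ovary and 2 arrays of wild-type (WT) testis, 4 of the 16 Affymetrix arrays in a series on the embryonic gonad, taken by the genotype, organ and stage in the labels. Counts were limited to autosomal genes, 11869 of the 12332 tested, so that genes of the sex chromosomes were not counted. The fit and the adjustment of p-values covered all 12332. The question was which genes of the mutant ovary read at testis level and which stayed ovarian, and the 2 arrays of WT ovary at E14.5 served as the other yardstick. KO ovary was the gonad of females labelled Wnt4 knock-out, WT testis that of wild-type males and WT ovary that of wild-type females. All 3 groups were whole gonads without treatment, frozen at dissection and kept until their genotype was known. Strain and allele are not given in the labels used here. Titles of the male samples speak of an ovary, whereas their source names a testis, and they were taken as testis. Nothing in the labels tells whether 1 embryo or several went onto an array, and p-values therefore reflect a spread between arrays. That spread was estimated in a fit shared by all 16 arrays.

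Sex-linked transcripts were read before the comparison, as a check on the labels. Xist, the transcript of the inactive X chromosome, had intensities of 5805 and 4088 in KO ovary, against 8.78 and 1087 in WT testis. Eif2s3y, a Y-linked gene, had 3.70 and 3.67 in KO ovary, against 867 and 904 in WT testis. The share of RNA from the opposite sex was estimated at 0.277% and 0.432% in KO ovary, 0.0603% and 22.8% in WT testis, and 0.423% and 19.9% in WT ovary. WT testis replicate 2 and WT ovary replicate 2 thus stood apart, and results are given with and without the E14.5 arrays above 10%. Leaving these out keeps a single array each of WT testis and WT ovary, which are then assumed to vary like the other groups. The percentages remain estimates, since transcripts of the own sex did not all read lower on the arrays with high shares. On WT testis replicate 2 Uty read 127, against 90.5 on replicate 1, while Kdm5d read 275 against 334.5. On WT ovary replicate 2 Xist read 4627, against 4501 on replicate 1. Mean intensity per array lay between 272 and 288, and the number of arrays limits the precision.

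As background, the fetal gonad takes the path of an ovary or a testis according to its supporting cells. In the male, SRY and SOX9 turn these cells into Sertoli cells, which send AMH, desert hedgehog and other signals and surround germ cells that stop dividing. In the female, WNT4 and R-spondin 1 keep beta-catenin active in pre-granulosa cells, while germ cells enter meiosis under retinoic acid and the transcription factor STRA8. Loss of Wnt4 is known in mice to bring male-like features to the ovary, such as a testis-type blood vessel and steroid-producing cells.

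Promoters are shown for 4 of the germ-cell genes that read above testis level in the mutant, picked after their values were seen, to show where the motifs counted further on lie. Each window runs 5′ to 3′ from 250 bases before the start of the gene to 50 after it, taken from RefSeq on GRCm38.p6. Stra8 (chr6:34920698-34920997, plus strand) encodes the gatekeeper of meiotic entry, and its capitals mark AGGTCA, the half-site bound by nuclear receptors, at positions -194 to -189 and -38 to -33 from the start. In the other promoters the capitals mark CNCCTCAG, a sequence reported for STRA8 binding in mouse, or its reverse complement where it lies on the opposite strand. M1ap (chr6:82946672-82946971, plus strand), which encodes a protein of meiosis I, holds it on the opposite strand at -111 to -104. Figla (chr6:86016941-86017240, plus strand), a transcription factor of oocytes, holds it at -91 to -84 and, on the opposite strand, at 12 to 19. Spdya (chr17:71551811-71552110, plus strand), an activator of CDK2 at meiotic telomeres, holds it on the opposite strand at 35 to 42.
Stra8: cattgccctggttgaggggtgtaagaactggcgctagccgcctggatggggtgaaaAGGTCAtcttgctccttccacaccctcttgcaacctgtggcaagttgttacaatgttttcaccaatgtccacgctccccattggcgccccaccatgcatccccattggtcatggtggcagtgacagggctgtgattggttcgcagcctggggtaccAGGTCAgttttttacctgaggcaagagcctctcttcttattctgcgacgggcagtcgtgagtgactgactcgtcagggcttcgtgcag
M1ap: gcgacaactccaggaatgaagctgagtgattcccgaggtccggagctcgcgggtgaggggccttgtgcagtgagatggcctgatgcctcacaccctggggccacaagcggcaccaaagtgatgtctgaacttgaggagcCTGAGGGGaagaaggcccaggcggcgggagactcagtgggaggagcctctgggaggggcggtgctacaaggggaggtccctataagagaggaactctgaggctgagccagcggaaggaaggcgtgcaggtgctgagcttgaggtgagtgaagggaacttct
Figla: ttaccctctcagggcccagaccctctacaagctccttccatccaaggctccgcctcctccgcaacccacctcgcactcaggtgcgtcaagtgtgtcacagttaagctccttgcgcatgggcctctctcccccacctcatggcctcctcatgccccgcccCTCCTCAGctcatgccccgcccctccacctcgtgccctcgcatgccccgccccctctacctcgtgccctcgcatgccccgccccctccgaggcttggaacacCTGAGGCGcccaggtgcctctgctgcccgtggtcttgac
Spdya: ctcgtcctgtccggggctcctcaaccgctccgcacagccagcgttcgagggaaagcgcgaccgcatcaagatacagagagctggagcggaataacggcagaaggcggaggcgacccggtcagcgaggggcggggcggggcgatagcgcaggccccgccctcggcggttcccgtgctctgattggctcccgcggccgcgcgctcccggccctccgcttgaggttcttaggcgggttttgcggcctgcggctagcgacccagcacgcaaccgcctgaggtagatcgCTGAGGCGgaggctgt

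Both strands were searched for each motif, and no marked site overlapped another. A gene was counted once, if any of its windows held the motif, and there were 32851 windows for 27025 genes. Windows were at hand for 71 of the 84 genes that were ovary-high and stayed above testis level in the mutant. CNCCTCAG was in 24 of these 71 genes (33.8%), and in 17 of 57 (29.8%) once the meiotic list was set aside. Of testis-high genes that stayed below testis level in the mutant, 147 had a window and 16 of these (10.9%) held it. It was in 11.2% of the 9574 autosomal genes tested that had a window and in 9.12% of the 27025 genes in the table. AGGTCA was in 14 of the 71 (19.7%), in 28 of the 147, in 14.6% of the 9574 and in 18.1% of the table. Of the 20 ovary-high genes that fell to testis level only 10 had a window. Of these 10, 2 held CNCCTCAG, 2 held AGGTCA and none held ATCAAAG, the letters of TCF/LEF factors, or AACAAT, those of SOX factors. The last 2 motifs were in 2.99% and 7.17% of the 9574 and in 4.29% and 12.2% of the table. The shares are descriptions of letters in these windows, from genes chosen by their values, and were not tested.

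Against WT testis, 186 autosomal genes (1.57%) were higher in KO ovary and 358 (3.02%) were lower, 544 in all (4.58%; limma, Benjamini-Hochberg adjusted p under 0.05 over all genes). In the same fit 438 genes (3.69%) differed between WT ovary and WT testis, of which 175 (1.47%) were higher in the ovary and 263 (2.22%) in the testis. KO ovary and WT ovary differed in 60 genes (0.506%), 22 of them higher (0.185%) and 38 lower (0.32%) in KO ovary. These comparisons share arrays, so their counts are set side by side and not tested against each other. The median difference over all autosomal genes was -0.009 (log2) for KO ovary minus WT testis. In 6113 autosomal genes (51.5%) the arrays of KO ovary and WT testis did not overlap. A gap between the arrays, where it is given below, therefore does not by itself mark a gene out. The 544 fell to 231 without KO ovary replicate 1, 199 without KO ovary replicate 2, 259 without WT testis replicate 1 and 235 without WT testis replicate 2. Without the arrays above 10% opposite-sex RNA it was 334, with 136 higher and 198 lower.

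Wnt4, the targeted gene, read 351 and 302 in KO ovary, 753 and 512 in WT testis, and 1138 and 1150 in WT ovary. The KO arrays lay below those of both WT sexes, yet transcript signal remained, and the labels do not say which part of the gene was deleted. The difference was -0.92 (log2, SE 0.358, limma adjusted p = 0.19) against WT testis and -1.80 (limma adjusted p = 0.0445) against WT ovary. Without any 1 of its 4 arrays the comparison with WT ovary missed the threshold, with adjusted p from 0.106 to 0.321.

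Meiotic genes were high in KO ovary. Of 29 tested members of the meiotic prophase list, 17 were higher in KO ovary than in WT testis and none was lower, with a median of 2.14 (log2) beside -0.009 over all genes. Among all autosomal genes 1.57% were higher and 3.02% lower. The median of WT ovary minus WT testis was 1.97 with 16 members higher, and none of the 29 passed between KO ovary and WT ovary. Summed over the list, intensity was 14780 to 17500 in KO ovary, 3066 to 6575 in WT testis and 10610 to 22090 in WT ovary. The count higher was 12 without KO ovary replicate 1, 8 without KO ovary replicate 2, 7 without WT testis replicate 1, 18 without WT testis replicate 2, and 22 without the arrays above 10% opposite-sex RNA. In whole gonads fewer cells of a type and less RNA per cell cannot be told apart, here and in every list that follows.

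Stra8 read 1149 and 1081 in KO ovary, 5.55 and 104 in WT testis, and 828 and 606 in WT ovary. Both KO arrays stood above both WT testis arrays, and the second WT testis array, with the most opposite-sex RNA, was the higher of its pair. The difference from WT testis was 5.13 (log2, SE 0.846, limma adjusted p = 0.00367), with 3.38 without WT testis replicate 1 and 6.87 without WT testis replicate 2. Dmc1, the meiotic recombinase, read 195 and 272 in KO ovary, 9.62 and 12.2 in WT testis, and 398 and 162 in WT ovary. It was 15.8-fold higher in KO ovary (limma adjusted p = 5.21e-05), and a second probe set gave a log2 difference of 2.56. M1ap read 369 and 666 in KO ovary, 5.97 and 15.0 in WT testis, and 360 and 226 in WT ovary. Its difference of 5.18 (log2, SE 0.332) was the largest rise of all autosomal genes with all arrays (limma adjusted p = 3.91e-06), and was 4.71 to 5.65 in the fits without either WT testis array. Stra8 stood above it without KO ovary replicate 2 (5.17 for Stra8, 4.76 for M1ap) and without WT testis replicate 2 (6.87 and 5.65).

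Other structural genes of meiotic chromosomes followed. Rec8, the meiotic cohesin, was 4.72-fold higher in KO ovary than in WT testis, and Syce1, of the synaptonemal complex, 7.96-fold higher. Spdya read 285 and 505 in KO ovary, 8.00 and 36.4 in WT testis, and 720 and 245 in WT ovary, 17.4-fold higher than in testis, with 9.49-fold without WT testis replicate 1 and 32-fold without replicate 2. A second Spdya probe set gave a smaller log2 difference of 1.22, beside 4.12 for the one used. Figla read 78.1 and 163 in KO ovary, 4.12 and 7.14 in WT testis, and 250 and 38.4 in WT ovary. The KO ovary arrays of each of these genes lay above both testis arrays, and for Spdya and Figla within the span of the WT ovary arrays. Sycp3, of the chromosome axis, was higher (log2 2.25, limma adjusted p = 0.0472) with all arrays, but its adjusted p was 0.161, 0.257 and 0.322 without KO ovary replicate 1, KO ovary replicate 2 and WT testis replicate 1, and its difference was 1.23 without WT testis replicate 1 and 3.27 without replicate 2. Further genes outside the list were among the largest rises: Adamdec1, a metalloprotease, was 26.9-fold higher, Tex101, a germ-cell surface protein, 20.8-fold, and Terb1, which ties telomeres to the nuclear envelope in meiosis, 19.3-fold. Tex101 stood at 3.32 (log2) without WT testis replicate 1 and 5.45 without replicate 2. Terb1 stood at 3.02 and 5.52 in the same omissions, 4.90 without KO ovary replicate 1 and 3.64 (adjusted p = 0.053) without KO ovary replicate 2.

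**Figure D1:**
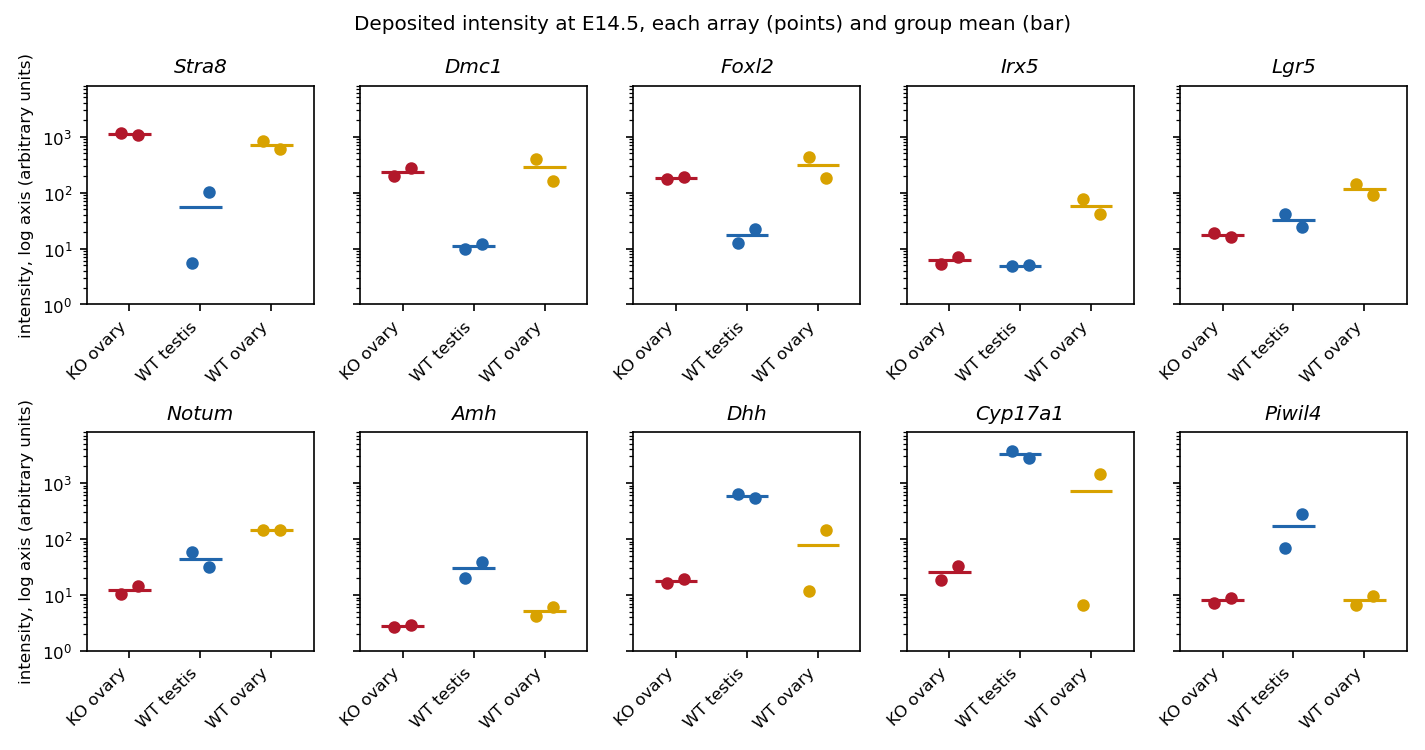
Deposited intensity (log axis, arbitrary units) of 10 genes at E14.5 in KO ovary, WT testis and WT ovary; points are the 2 arrays of a group and bars their mean. Stra8, Dmc1 and Foxl2 in KO ovary lie near WT ovary, Irx5 lies near WT testis, and Amh, Dhh, Cyp17a1 and Piwil4 lie below WT testis.

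Genes of the ovarian supporting cells split. Of 18 pre-granulosa genes, 3 were higher in KO ovary than in WT testis (Foxl2, Rspo1 and Irx3), Msx2 was lower and 14 did not pass, with a median of 0.24 (log2). The shares over all autosomal genes were 1.57% higher and 3.02% lower. In WT ovary 10 of the 18 were higher than in WT testis (median 1.14), and 5 of the 18 were lower in KO ovary than in WT ovary (median -1.32). The pre-granulosa sum was 6610 to 7152 in KO ovary, 4952 to 6240 in WT testis and 9975 to 12670 in WT ovary. The list's counts higher and lower were 2 and 0 without KO ovary replicate 1, 1 and 1 without KO ovary replicate 2, 1 and 0 without WT testis replicate 1, 2 and 1 without WT testis replicate 2, and 3 and 1 without the arrays above 10% opposite-sex RNA.

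Foxl2, the transcription factor that maintains granulosa cells, read 176 and 193 in KO ovary, 12.7 and 22.7 in WT testis, and 437 and 184 in WT ovary. It was 8.91-fold higher in KO ovary than in WT testis (limma adjusted p = 0.00104), with no array whose omission ended the call. Rspo1, the R-spondin that acts with WNT4, read 622 and 663 in KO ovary, 147 and 265 in WT testis, and 450 and 310 in WT ovary. Its KO arrays lay above those of both sexes, and the rise over testis (log2 1.68, limma adjusted p = 0.00606) missed the threshold without KO ovary replicate 2 (0.0576) or WT testis replicate 1 (0.0679). Irx3, an Iroquois homeobox gene, read 566 and 469 in KO ovary, 66.6 and 134 in WT testis, and 1618 and 998 in WT ovary, between the WT sexes on every array. Its log2 difference from testis of 2.40 (limma adjusted p = 0.0398) did not pass without any 1 of the 4 arrays (adjusted p 0.0718 to 0.231), and against WT ovary it was -1.30 (adjusted p = 0.888). Msx2, a homeobox gene, was lower (log2 -1.99, limma adjusted p = 0.00653), with an adjusted p of 0.0559 without KO ovary replicate 1 and 0.0555 without WT testis replicate 1, where its difference was -1.34, and -2.65 without WT testis replicate 2.

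Irx5, the neighbour of Irx3 and like it a gene of pre-granulosa cells in mouse, did otherwise. It read 5.20 and 7.08 in KO ovary, 4.79 and 5.11 in WT testis, and 75.1 and 40.5 in WT ovary. The KO arrays sat with the testis arrays, at a difference of 0.17 (log2, 95% interval -0.448 to 0.796, limma adjusted p = 0.842), and below WT ovary by -2.56 (log2, limma adjusted p = 0.00235). All 4 KO ovary and WT testis readings of Irx5 lay below the median of their arrays (9.32 to 10.3), near the 2.14 to 4.75 that Y-linked genes read in KO ovary, and at such low readings a pseudocount of 4 pulls the difference from testis toward 0. Runx1, a transcription factor of fetal supporting cells, read 19.1 and 18.1 in KO ovary, 11.1 and 10.6 in WT testis, and 61.8 and 56.1 in WT ovary. It was 2.78-fold lower in KO ovary than in WT ovary, and its difference from testis, 0.61 (log2, interval 0.227 to 0.987), had an adjusted p of 0.0713. Other Runx1 probe sets gave log2 differences from testis of 0.20, 0.48 and -0.14. Msx1, a homeobox gene with a part in meiotic entry of mouse germ cells, read 37.8 and 29.6 in KO ovary, 24.6 and 27.5 in WT testis, and 113 and 109 in WT ovary. Fst, which encodes the activin-binding protein follistatin, read 182 and 341 in KO ovary, 67.3 and 170 in WT testis, and 962 and 681 in WT ovary, and passed against neither (adjusted p 0.277 and 0.359).

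No WNT or beta-catenin feedback gene was called higher in KO ovary than in WT testis, where 1.57% of all autosomal genes were higher and 3.02% lower. Of 14 tested, 2 were lower in KO ovary than in WT testis, with a median of -0.58 (log2), beside a median of 0.59 for WT ovary minus WT testis. The count lower than testis was 1 without either KO ovary array or WT testis replicate 1, 0 without WT testis replicate 2, and 2 without the arrays above 10% opposite-sex RNA. Against WT ovary 3 were lower (Notum, Lgr5 and Nkd2; median -1.12). The WNT list summed to 3991 to 5979 in KO ovary, 4995 to 5860 in WT testis and 8123 to 11180 in WT ovary. Notum, which removes the lipid from WNT ligands, read 10.5 and 14.4 in KO ovary, 58.6 and 31.1 in WT testis, and 147 and 146 in WT ovary. Both KO arrays lay below those of both sexes, at -3.21 (log2, limma adjusted p = 0.0064) against WT ovary and -1.52 (SE 0.455, adjusted p = 0.0809) against WT testis. The comparison with WT testis passed only without the arrays above 10% opposite-sex RNA (log2 -1.94, adjusted p = 0.044), and that with WT ovary missed without KO ovary replicate 1 (0.0738) or KO ovary replicate 2 (0.0518). Lgr5, a receptor of R-spondins, read 18.6 and 16.1 in KO ovary, 41.3 and 23.9 in WT testis, and 140 and 89.8 in WT ovary, 5.46-fold below WT ovary. The 2 genes lower than in testis were secreted WNT inhibitors, Wif1 (log2 -2.72, limma adjusted p = 0.00422) and Dkk1 (-1.49, 0.0263). Wif1 had an adjusted p of 0.0534 without WT testis replicate 2, and Dkk1 missed without any 1 of the 4 arrays (0.062 to 0.23).

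The 438 genes that differed between the WT sexes were sorted by where KO ovary fell. A gene was called testis level when KO ovary passed against WT ovary toward the testis, did not pass against WT testis and lay within 1 log2 unit of it, and ovarian when KO ovary passed against WT testis on the side of WT ovary and not against WT ovary. A gene past both and lying between was called between, and the rest were left unresolved. The sorting uses the values it describes and no test is given for it. Both classes rest on a comparison that did not pass, against WT testis for testis level and against WT ovary for ovarian. Only testis level sets a limit on the distance, and ovarian sets none from WT ovary. A gene called ovarian may thus lie between the sexes, as did Irx3, at -1.30 (log2) against WT ovary. Of the 175 ovary-high genes, 20 (11.4%) were at testis level, 84 (48%) were ovarian, Lzts1 lay between and 70 (40%) were unresolved. Of the 263 testis-high genes, 4 (1.52%) were at testis level, 195 (74.1%) were ovarian, none lay between and 64 (24.3%) were unresolved. Without the arrays above 10% opposite-sex RNA there were 53 testis-level and 231 ovarian genes, which kept 15 of the 24 and 158 of the 279. Leaving out single arrays gave 7 to 43 testis-level ovary-high genes and 24 to 137 ovarian ones, and 0 to 21 and 33 to 248 among testis-high genes. The highest of each of these 4 counts came without WT ovary replicate 2.

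**Figure D2:**
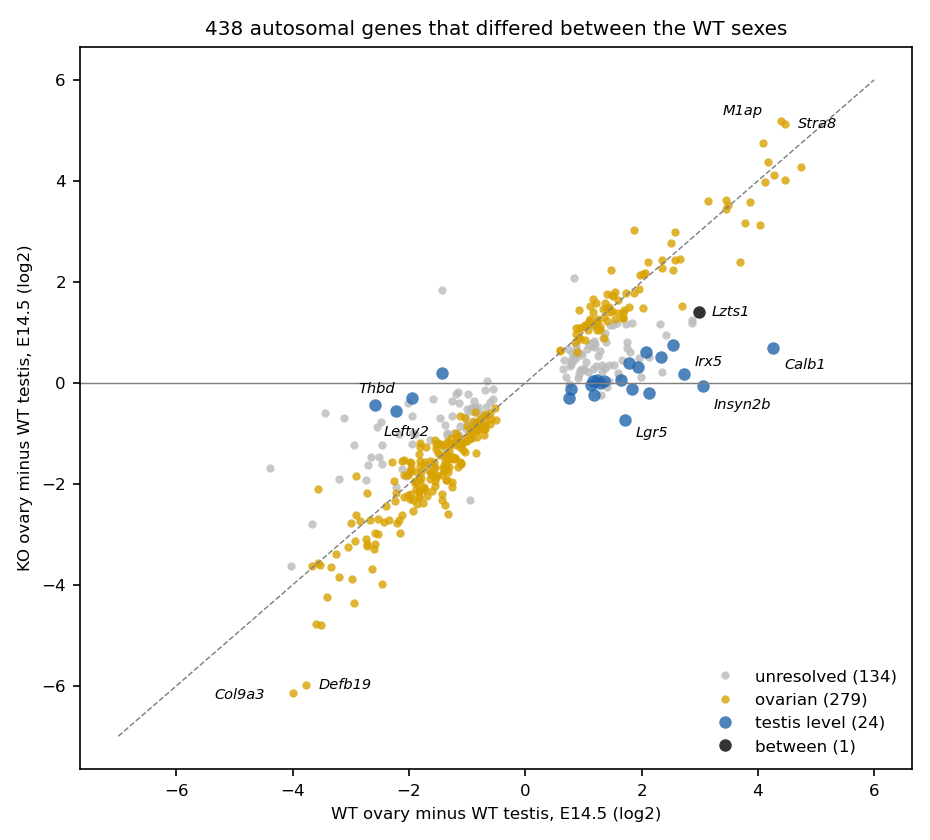
KO ovary minus WT testis (log2, vertical axis) against WT ovary minus WT testis (log2, horizontal axis) for the 438 autosomal genes that differed between the WT sexes, each point a gene coloured by its class. The dashed line marks equal differences, and since both axes share the WT testis arrays the spread along it is not a result; the 24 testis-level genes lie near 0 on the vertical axis.

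The 20 ovary-high genes at testis level had a median difference of 0.04 (log2) from WT testis, while WT ovary stood 1.74 above it. They were Calb1, Insyn2b, Irx5, Prcd, Lypd6b, D630039A03Rik, Runx1, Msx1, Grik1, Rmst, Lgr5, Clic6, Stum, Fam184b, Fgf1, Amph, Cth, Trim66, Ptprr and Pax8. Of all 24 testis-level genes, 16 had a 95% interval of the difference from testis within 1 log2 unit on either side, as had 69.5% of all autosomal genes, and the class itself was chosen on that difference. The KO ovary and WT testis arrays overlapped in 12 of the 24, while they were apart in 51.5% of all autosomal genes. In 5 of the 20 (Insyn2b, Irx5, Ptprr, Stum and Trim66) every KO ovary and WT testis reading lay below the median of its array, so that testis level there means dim in both groups. The same was so of 3.77% of autosomal genes. Others of the 20 read close to the array medians of 9.32 to 10.3, such as Clic6 (8.11 to 9.65) and Pax8 (6.39 to 11.5). Calb1, the calcium-binding protein calbindin, read 22.5 and 21.9 in KO ovary, 24.8 and 5.10 in WT testis, and 358 and 265 in WT ovary, 11.9-fold lower than in WT ovary. Its testis arrays were apart, and it passed against testis without WT testis replicate 1 (log2 1.53, limma adjusted p = 0.0425). Insyn2b, named for inhibitory synapses, read 5.72 and 6.03 in KO ovary, 5.76 and 6.83 in WT testis, and 131 and 50.7 in WT ovary. Pax8, a transcription factor of the genital ducts, read 6.39 and 7.79 in KO ovary, 11.5 and 8.11 in WT testis, and 18.1 and 19.7 in WT ovary. In each of these both KO arrays lay below both WT ovary arrays and below the higher testis array. Calb1 and Pax8 belong to the list of mesonephros and genital ducts, whose 8 tested genes had a median of -0.65 (log2) in KO ovary minus WT ovary, beside -0.02 over all autosomal genes. That list summed to 2243 to 2244 in KO ovary, 1864 to 2144 in WT testis and 3369 to 3838 in WT ovary, and its part in these differences was not tested. Calb1, Insyn2b, Irx5, Lgr5, Grik1 and Runx1 passed against WT ovary without any 1 of the 4 arrays, though Insyn2b moved between -2.47 without WT ovary replicate 1 and -3.77 (log2) without replicate 2, and the other 14 missed in 1 or more omissions. Lzts1, which lay between, read 30.2 and 39.0 in KO ovary, 8.84 and 12.2 in WT testis, and 96.2 and 126 in WT ovary, and was ovarian without the arrays above 10%. It missed against WT testis without KO ovary replicate 2 (0.092) or WT testis replicate 1 (0.0834), and against WT ovary without KO ovary replicate 1 (0.188), KO ovary replicate 2 (0.0852) or WT ovary replicate 2 (0.0788).

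With all arrays, 4 of the 263 testis-high genes reached testis level in the mutant. The WT ovary yardstick of this count includes replicate 2, with 19.9% opposite-sex RNA. The count was higher without that array and with opposite-sex RNA as a covariate, so it is not read as few. Thbd, the thrombin receptor thrombomodulin, read 381 and 597 in KO ovary, 536 and 791 in WT testis, and 59.1 and 186 in WT ovary. Lefty2, a secreted inhibitor of NODAL, read 83.3 and 57.1 in KO ovary, 99.4 and 108 in WT testis, and 15.999 and 22.5 in WT ovary. Akr1cl, an aldo-keto reductase, read 2721 and 2300 in KO ovary, 2562 and 1849 in WT testis, and 603 and 1076 in WT ovary. Sstr4, a somatostatin receptor, read 30.4 and 35.6 in KO ovary, 48.8 and 35.7 in WT testis, and 4.92 and 11.9 in WT ovary. The KO and testis arrays of Thbd and Akr1cl overlapped, and all KO arrays of the 4 genes lay above both WT ovary arrays. Their log2 differences from WT ovary were 2.14, 1.66, 1.63 and 1.63 for Thbd, Lefty2, Akr1cl and Sstr4, with limma adjusted p of 0.0445, 0.0263, 0.00669 and 0.0486. Without KO ovary replicate 1 none of the 4 passed, with adjusted p of 0.123, 0.307, 0.0772 and 0.209 in that order. Only Akr1cl also passed in the other omissions; Thbd, Lefty2 and Sstr4 missed without KO ovary replicate 2 (0.359, 0.0852 and 0.329) or WT ovary replicate 1 (0.283, 0.213 and 0.388), and Thbd then stood at 1.34 (log2) without WT ovary replicate 1 and 2.93 without replicate 2. Lefty1, which lies beside Lefty2, read 88.1 and 51.5 in KO ovary, 23.7 and 32.7 in WT testis, and 11.8 and 14.1 in WT ovary. It was 4.23-fold above WT ovary (limma adjusted p = 0.0145; 0.168 without KO ovary replicate 1 and 0.113 without WT ovary replicate 1) and did not pass against WT testis (adjusted p = 0.0754).

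Sertoli cell genes were low in KO ovary. Of 25 tested, 14 were lower in KO ovary than in WT testis and none was higher, with a median of -1.69 (log2). Beside this, 3.02% of all autosomal genes were lower and 1.57% higher. In WT ovary 15 were lower than in WT testis (median -2.32), and none passed between KO ovary and WT ovary. The Sertoli sum was 2156 to 2424 in KO ovary, 11830 to 13850 in WT testis and 1323 to 4613 in WT ovary, where replicate 2 held the higher sum and 19.9% opposite-sex RNA. The count lower was 6 without KO ovary replicate 1, 9 without KO ovary replicate 2, 8 without either WT testis array and 14 without the arrays above 10%.

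Amh, the hormone that removes the female ducts in males, read 2.63 and 2.87 in KO ovary, 20.2 and 39.6 in WT testis, and 4.21 and 6.17 in WT ovary. It was 4.81-fold lower in KO ovary than in WT testis (limma adjusted p = 0.00229), a call that held without each single array. Dhh, the desert hedgehog ligand, read 16.4 and 19.2 in KO ovary, 630 and 552 in WT testis, and 11.8 and 148 in WT ovary. It was 27.3-fold lower than in testis (limma adjusted p = 0.0029), and its second probe set gave a log2 difference of -1.90. Of the genes that answer to hedgehog, the receptor Ptch1 was 2.13-fold and the decoy receptor Hhip 6.84-fold lower, whereas Gli1 read 120 and 105 in KO ovary, 236 and 91.8 in WT testis, and 46.8 and 73.3 in WT ovary and did not pass. Other Ptch1 probe sets gave log2 differences from testis of -0.15 and -1.56. In the hedgehog and peritubular list 2 of 7 were lower, beside 3.02% of all autosomal genes. Its median of -0.39 turned to 0.27 without WT testis replicate 1. Col9a3, a collagen chain, was 70.5-fold lower, Defb19, a defensin, 63.0-fold, and Gdnf, a growth factor for germ stem cells, 6.59-fold. Hsd17b3, the enzyme of mouse Sertoli cells that forms testosterone, was 14.3-fold lower.

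Sox9, the transcription factor of Sertoli fate, read 16.3 and 15.3 in KO ovary, 114 and 107 in WT testis, and 11.1 and 56.2 in WT ovary. It was lower than in testis (log2 -2.53, limma adjusted p = 0.00853), but missed without any 1 of the 4 arrays (0.0554 to 0.068). Its other probe sets gave log2 differences of -2.85 and -0.49. Cst9, a cystatin of Sertoli cells, read 8.35 and 5.92 in KO ovary, 1708 and 1157 in WT testis, and 3.40 and 565 in WT ovary. Its difference of -6.99 (log2, SE 1.52, limma adjusted p = 0.0167) was the largest fall, and the wide gap between the WT ovary arrays enters its error. Without any 1 of the 4 arrays its adjusted p was 0.083 to 0.115. Ptgds, which makes prostaglandin D2, read 48.2 and 81.4 in KO ovary, 2016 and 1713 in WT testis, and 43.9 and 604 in WT ovary, with adjusted p of 0.0534 to 0.0924 in the same omissions. Cstdc1, Kazald1, Gstm6 and Ephx1 were 14.7-fold, 20.5-fold, 25.3-fold and 15.8-fold lower than in testis, and held without each array.

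Genes of fetal Leydig cells, the androgen-making cells of the testis, were low in KO ovary. Of 13 tested members of the list of fetal Leydig cells and steroidogenesis, 6 were lower than in WT testis and none was higher (median -1.79 log2; -1.59 for WT ovary minus WT testis, with 6 lower). None passed between KO ovary and WT ovary, and 3.02% of all autosomal genes were lower in KO ovary than in WT testis. The Leydig sum was 3072 to 3547 in KO ovary, 12850 to 15410 in WT testis and 2675 to 6303 in WT ovary. The count lower was 2 without either KO ovary array, 3 without either WT testis array and 8 without the arrays above 10%. Cyp17a1, which makes androgen precursors, read 18.4 and 32.5 in KO ovary, 3787 and 2851 in WT testis, and 6.58 and 1459 in WT ovary, a log2 difference from testis of -6.85 (SE 1.56, limma adjusted p = 0.0227; 0.103 to 0.157 without any 1 of the 4 arrays). Hsd3b1, a defining gene of these cells, read 325 and 478 in KO ovary, 2821 and 2091 in WT testis, and 116 and 873 in WT ovary. Its log2 difference from testis was -2.61 (limma adjusted p = 0.0339), a call lost without any 1 of the 4 arrays. The KO arrays of Cyp17a1 and Hsd3b1 lay above WT ovary replicate 1 and below replicate 2. Scarb1, the receptor for HDL cholesterol, was 4.48-fold and Fdx1, the electron donor of mitochondrial P450 enzymes, 2.36-fold lower, both also without each single array.

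Cyp11a1, the enzyme of the first step of steroid synthesis, read 76.0 and 107 in KO ovary, 2525 and 1522 in WT testis, and 5.50 and 847 in WT ovary. Star, which brings cholesterol into mitochondria, read 70.3 and 77.7 in KO ovary, 568 and 505 in WT testis, and 5.83 and 178 in WT ovary. The Star probe set used gave a log2 difference from testis of -2.79, and its other probe sets gave -4.16 and -3.73. Both KO arrays of each gene lay below testis and above the WT ovary array with 0.423% opposite-sex RNA. Neither gene passed against testis (adjusted p 0.0953 and 0.0968) or against WT ovary (1.0 for both), but both passed against testis without the arrays above 10% (log2 -4.74, adjusted p = 0.00725 for Cyp11a1, and -2.88, 0.00675 for Star). Against WT ovary they passed only without WT ovary replicate 2, at log2 3.31 (adjusted p = 0.0432) for Cyp11a1 and 2.99 (0.00353) for Star. Of the adrenal cortex list, Scarb1 alone of 6 was lower, beside 3.02% of all autosomal genes. The defining genes Cyp11b1, Cyp21a1 and Mc2r read 6.50 to 11.4, 6.72 to 9.93 and 8.16 to 10.5 in KO ovary. In WT testis they read 11.9 to 16.7, 8.30 to 11.3 and 13.4 to 17.6.

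Genes of the male germ cell path were low as well. Of 16 tested, 7 were lower in KO ovary than in WT testis and none was higher. For all autosomal genes the shares were 3.02% lower and 1.57% higher. The list's median was -0.82 (log2), and -1.25 for WT ovary minus WT testis, with 9 lower. Lefty1 and Lefty2, which the list holds, were the 2 members higher in KO ovary than in WT ovary. The count lower than testis was 6 without KO ovary replicate 1 or WT testis replicate 1, 4 without KO ovary replicate 2 or WT testis replicate 2, and 5 without those above 10%. Summed, the list read 3340 to 3652 in KO ovary, 4088 to 5312 in WT testis and 3398 to 3485 in WT ovary. Piwil4, a PIWI protein that silences transposons in fetal male germ cells, read 7.19 and 8.98 in KO ovary, 68.6 and 276 in WT testis, and 6.61 and 9.67 in WT ovary. The fall of 11.8-fold (limma adjusted p = 0.000857) was -4.54 (log2) without WT testis replicate 1 and -2.59 without replicate 2. Morc1, another repressor of transposons, was 27.6-fold lower, and Tdrd5 and Tdrd9, tudor proteins of the piRNA pathway, 9.16-fold and 2.11-fold lower. Dnmt3l, a partner of DNA methyltransferases, was 2.77-fold lower, with an adjusted p of 0.0554 without KO ovary replicate 2 and 0.0566 without WT testis replicate 2.

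**Figure D3:**
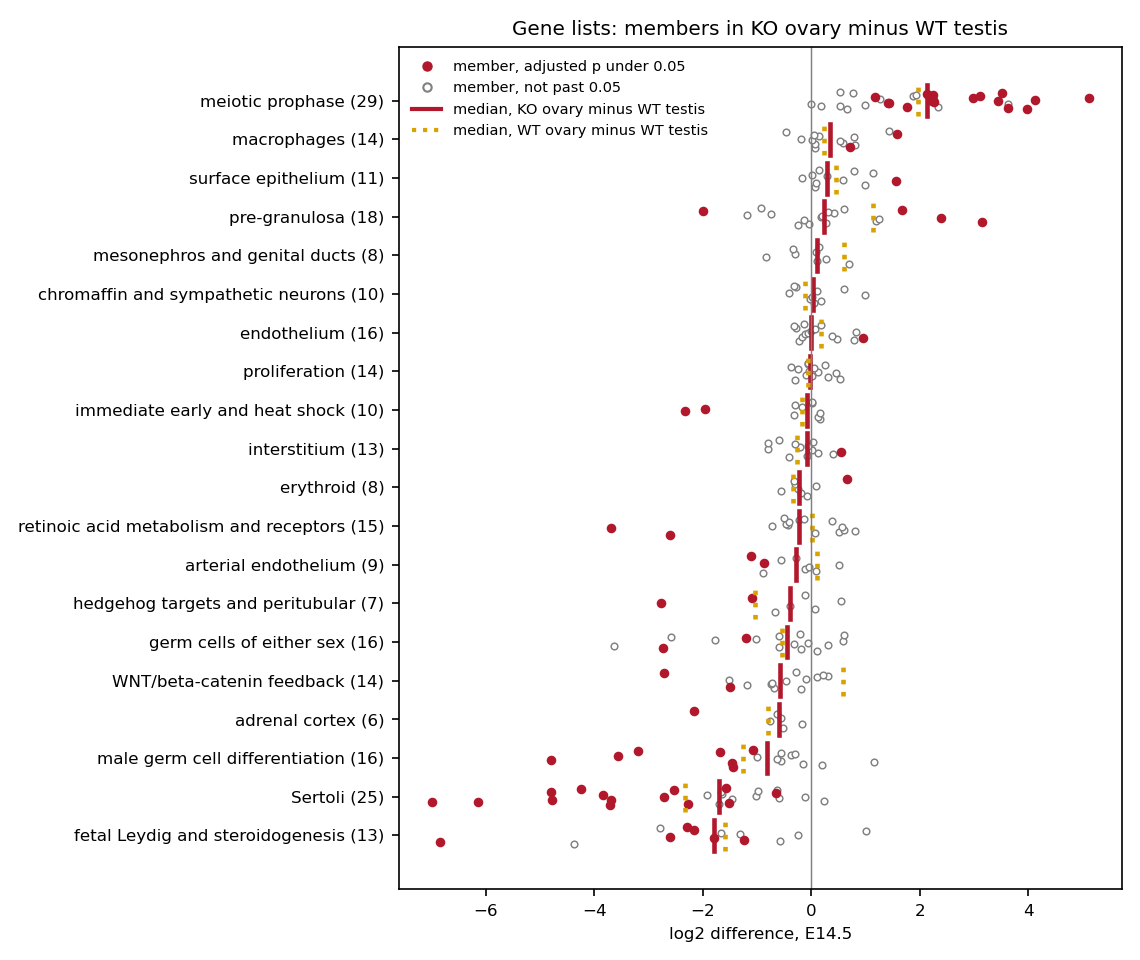
Log2 difference of KO ovary minus WT testis at E14.5 (horizontal axis) for the tested autosomal members of 20 gene lists (number in brackets), with filled points past the threshold and open points not. Solid bars mark the list's median and dotted bars its median in WT ovary minus WT testis; the meiotic list lies on the right in both, at 2.14 and 1.97, while the WNT list differs, at -0.58 and 0.59.

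Most genes of germ cells of either sex did not pass, and over all autosomal genes 3.02% were lower in KO ovary than in WT testis. Of 16 tested, Dnd1 and Prdm1 were lower in KO ovary than in WT testis and 14 did not pass, and the sum was 8334 to 10490 in KO ovary, 11200 to 13980 in WT testis and 5915 to 8124 in WT ovary. Ddx4, the germ cell helicase, read 1313 and 1168 in KO ovary, 987 and 2008 in WT testis, and 884 and 921 in WT ovary. Dazl, an RNA-binding protein of germ cells, read 3651 and 2655 in KO ovary, 2550 and 3255 in WT testis, and 2107 and 2544 in WT ovary. These overlapped between KO ovary and testis. Pou5f1, the pluripotency factor OCT4, read 312 and 75.5 in KO ovary, 405 and 246 in WT testis, and 7.40 and 165 in WT ovary, with replicates apart within both ovary groups. Dppa4, a chromatin protein of pluripotent cells, likewise read 278 and 63.3 in KO ovary, 1528 and 1907 in WT testis, and 15.6 and 555 in WT ovary, and missed against testis with all arrays (log2 -3.63, limma adjusted p = 0.0663) but passed without the arrays above 10% (-3.47, 0.0162). Without WT ovary replicate 2 both genes passed above WT ovary, Pou5f1 by 3.80 (log2, limma adjusted p = 0.0121) and Dppa4 by 2.82 (0.0366). Dnd1, an RNA-binding protein of germ cells, had an adjusted p of 0.0166 with all arrays, 0.175 without KO ovary replicate 2, and 0.0877 and 0.1 without WT testis replicates 1 and 2. Prdm1, a transcriptional repressor, missed without any 1 of the 4 arrays (0.0817 to 0.192).

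Most retinoic acid genes did not pass, and over all autosomal genes 3.02% were lower in KO ovary than in WT testis. Of 15 tested, the enzymes Cyp26b1 and Aldh1a1 were lower in KO ovary than in WT testis and none was higher (median -0.23 log2, which was 0.001 without WT testis replicate 1, where 1 member was higher). Cyp26b1, which breaks down retinoic acid, read 6.42 and 6.63 in KO ovary, 227 and 74.9 in WT testis, and 7.34 and 37.6 in WT ovary. It was 12.8-fold lower (limma adjusted p = 0.00269), and -2.91 (log2) without WT testis replicate 1 and -4.46 without replicate 2. Aldh1a1, which makes retinoic acid, read 560 and 763 in KO ovary, 4298 and 3655 in WT testis, and 1101 and 2229 in WT ovary. It was 6.03-fold lower than in testis (limma adjusted p = 0.000236), and both KO arrays lay below both WT ovary arrays, a difference of -1.26 (log2) that did not pass (adjusted p = 0.0828). The receptors Rara, Rarb and Rarg did not pass, and neither did the enzymes Aldh1a2 (adjusted p = 0.905) and Rdh10 (0.288), which make retinoic acid and its precursor.

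In 19 genes KO ovary passed against both WT sexes in the same direction, a set picked after the values were seen and both contrasts share the KO arrays. The 11 higher were Abca9, Adam8, Aspn, Cpa1, Cyp2r1, Fmo2, Ggt5, Mettl24, Ramp1, Rassf2 and Spink8, and the 8 lower Gfra1, Osr2, Pde8b, Plppr4, Prdm1, Sall1, Scd1 and Vcan. Sall1, a zinc-finger transcription factor, read 7.86 and 10.035 in KO ovary, 84.9 and 158 in WT testis, and 207 and 119 in WT ovary. Its log2 difference was -3.22 (limma adjusted p = 0.00238) from testis and -3.65 (0.0051) from WT ovary, the last with 0.0519 without KO ovary replicate 1. Cpa1, a carboxypeptidase known from the pancreas, read 575 and 783 in KO ovary, 139 and 246 in WT testis, and 53.4 and 80.6 in WT ovary. It was higher by 1.84 (log2, limma adjusted p = 0.00913) than in testis and by 3.28 (0.00235) than in WT ovary, and missed against testis without KO ovary replicate 2 (0.102) or WT testis replicate 1 (0.0937). Fmo2, a monooxygenase, read 341 and 349 in KO ovary, 30.2 and 98.2 in WT testis, and 65.8 and 66.4 in WT ovary. Its rise over testis of 2.56 (log2, limma adjusted p = 0.0032) was 1.77 without WT testis replicate 1 and 3.35 without replicate 2. Osr2, a transcription factor of the urogenital mesenchyme, read 110 and 161 in KO ovary, 457 and 343 in WT testis, and 435 and 430 in WT ovary. Without the arrays above 10% opposite-sex RNA 10 of the 19 kept both calls. Aspn, Cpa1, Gfra1, Ggt5, Osr2, Pde8b, Prdm1, Rassf2 and Vcan missed against testis without at least 1 array. Against WT ovary only Cpa1 of the 19 kept its call without each single array; for Fmo2 and Osr2 the adjusted p then ran from 0.0684 to 0.187 and from 0.0579 to 0.222.

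**Figure D4:**
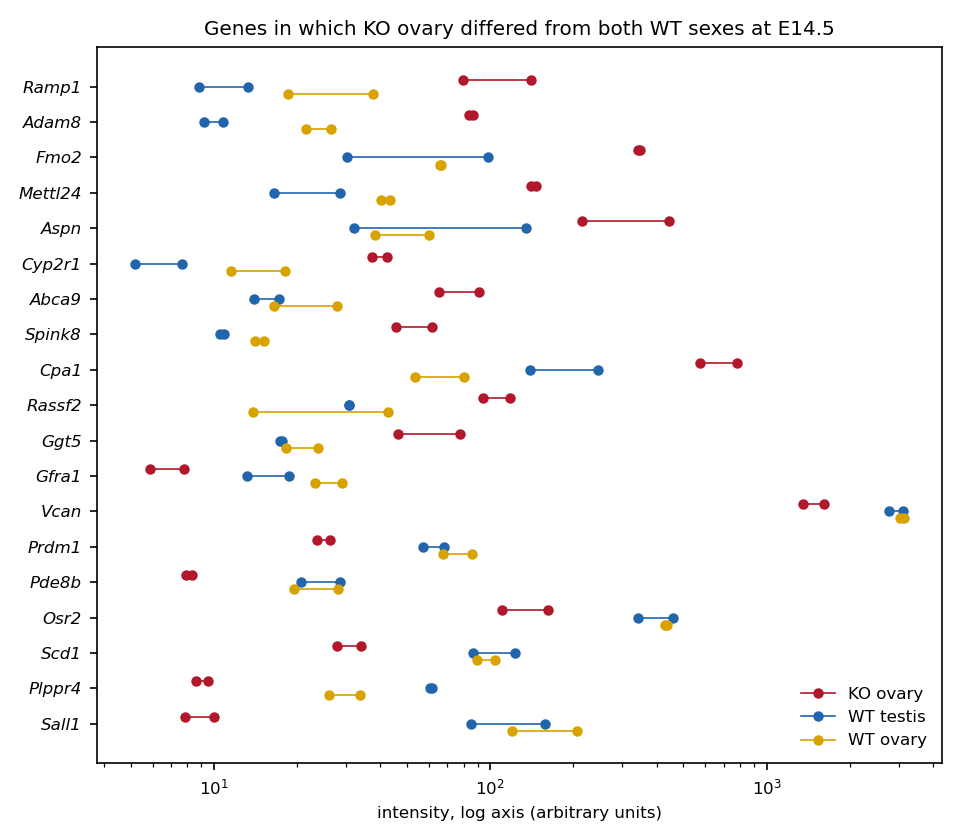
Deposited intensity (log axis, arbitrary units) of the 19 genes in which KO ovary passed against both WT sexes in the same direction, each point an array and each line joining the 2 arrays of a group. Sall1 in KO ovary reads 7.86 and 10.035, against 84.9 to 207 in the WT arrays, and Fmo2 341 and 349, against 30.2 to 98.2.

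Sex genes were also chosen on the E12.5 arrays, whose values enter none of the E14.5 differences, although they do enter the shared estimate of the spread and so the calls. At E12.5 64 autosomal genes (0.539%) differed between WT ovary and WT testis, 47 of them higher in the ovary (0.396%) and 17 in the testis (0.143%). The 47 ovary-high ones had a median of 0.51 (log2) in KO ovary minus WT testis at E14.5, with 11 higher and none lower, and 0.84 in WT ovary minus WT testis, with 19 higher. Against WT ovary their median in KO ovary was -0.37, with 6 lower and 1 higher. The 17 testis-high ones had a median of -1.24 in KO ovary minus WT testis, with 9 lower, and -1.34 in WT ovary minus WT testis, with 10 lower. Against WT ovary their median in KO ovary was -0.05, with 1 higher. Without the E14.5 arrays above 10% opposite-sex RNA the medians against testis were 0.58 (9 higher) in KO ovary and 0.83 in WT ovary for the first set, and -1.30 (7 lower) and -1.67 for the second. Of the choosing arrays, WT ovary E12.5 replicate 1 held 18.2% opposite-sex RNA. Without it 1211 ovary-high and 296 testis-high genes passed at E12.5, which included all 64. The medians of these wider sets in KO ovary minus WT testis at E14.5 were -0.11 and 0.20, so the values above hold for the 64 genes and not for a choice made without that array.

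Lists of other cell types of the gonad held few calls. In each of the following lists most members did not pass, and the calls named, other than that of Hspa1a, were lost without 1 or more single arrays. Over all autosomal genes 4.58% passed, 1.57% higher and 3.02% lower. A list with 1 or 2 calls was therefore not read as a shift of its cell type. Of 11 surface epithelium genes Krt19, a keratin, was higher (log2 1.57, limma adjusted p = 0.00685; 0.0505, 0.0603 and 0.0771 without KO ovary replicate 1, KO ovary replicate 2 and WT testis replicate 2), and the sums were 6261 to 6336 in KO ovary, 4930 to 5052 in WT testis and 6986 to 7063 in WT ovary. Of 14 macrophage genes Lyz2, the lysozyme, and Aif1 were higher (log2 1.59 and 0.72), neither without any 1 of the 4 arrays, and the sums were 1449 to 2105 in KO ovary, 1480 to 1599 in WT testis and 1600 to 2211 in WT ovary. The macrophage markers Csf1r (adjusted p = 0.991) and C1qa (0.239) did not pass. Of 9 arterial genes Unc5b and Jag1 were lower (log2 -1.10 and -0.87), of 16 endothelial genes Emcn was higher (0.95), of 13 interstitial genes Lum was higher (0.55) and of 8 erythroid genes Tfrc was higher (0.66). Those calls failed without KO ovary replicate 1 in each case (adjusted p 0.239 for Unc5b, 0.337 for Jag1, 0.0924 for Emcn, 0.114 for Lum and 0.12 for Tfrc). None of 14 proliferation genes, 10 chromaffin and neural genes or 8 genes of mesonephros and ducts passed, with medians of -0.02, 0.03 and 0.10, each of which changed sign without 1 or more single arrays. Of 10 immediate early and heat shock genes Hspa1a (log2 -2.33) and Hspa1b (-1.97) were lower, a near-identical pair that an array may not separate, and Hspa1b missed without KO ovary replicate 1 (0.107) or WT testis replicate 2 (0.083). In the list of mesonephros and ducts Calb1 and Pax8 were lower in KO ovary than in WT ovary.

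The distance between KO ovary and WT testis changed between stages. The difference at E14.5 minus that at E12.5 passed the test in 837 autosomal genes (7.05%), 225 of them positive (1.9%) and 612 negative (5.16%). The median over all autosomal genes was -0.19 (log2). Stra8 read 4.82 and 5.58 in KO ovary and 4.67 and 4.55 in WT testis at E12.5, against 1149 and 1081 in KO ovary and 5.55 and 104 in WT testis at E14.5, a stage difference of 5.03 (log2, SE 1.2, limma adjusted p = 0.0311). Dmc1 read 3.74 and 6.44 in KO ovary and 4.77 and 4.55 in WT testis at E12.5, a stage difference of 3.93 (adjusted p = 0.00225). Star read 289 and 145 in KO ovary and 48.0 and 50.5 in WT testis at E12.5, so that KO ovary was above WT testis at the first stage and below it at the second, a stage difference of -4.76 (log2, SE 1.24, adjusted p = 0.0404). The 2 WT testis arrays of E12.5 were almost alike: the SD of their log2 replicate difference was 0.142, against 0.335 to 0.587 in the other 7 groups. With these arrays averaged into 1 sample, 20 genes passed, among them M1ap (adjusted p = 0.005) and Dmc1 (0.0211). Of single arrays, 47 genes passed without KO ovary E14.5 replicate 1, 223 without KO ovary E14.5 replicate 2, 241 and 105 without WT testis E14.5 replicates 1 and 2, and 46 and 2054 without KO ovary E12.5 replicates 1 and 2, the second of which held 17.9% opposite-sex RNA.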

How the data were processed

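Whole embryonic gonads were measured on 16 Affymetrix Mouse430_2 arrays, 8 groups of 2. The deposited values are linear intensities, never negative, for which MAS5 is the only tool named in the submitters' processing notes; the sources used here give neither its version nor its scaling. Of 45101 probe sets, 64 controls were left out and 25596 were above their array's median in at least 2 arrays. The platform annotation of 2016 gave 34945 probe sets 1 symbol, 932 several and 9160 none; only those with 1 symbol were named, and the probe set with the highest mean stood for its gene. This left 12332 genes, 11869 autosomal, 442 sex-linked and 21 without a chromosome.

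Group means were fitted to log2(intensity + 4) on all 16 arrays, which share 1 estimate of the spread (limma 3.58.1 in R 4.3.3, trended variance, 8 residual and 5.29 prior degrees of freedom). Tests were two-sided, adjusted by Benjamini-Hochberg over the 12332 genes, at a threshold of 0.05, and SE and intervals come from this fit. Fold changes are on the log2(intensity + 4) scale and understate those of low genes. On simulated data with the real means, 49 of 100 genes changed 2-fold and 91 of 100 changed 4-fold were recovered in KO ovary minus WT testis, with 9 false calls among 12332 genes. Opposite-sex RNA was estimated from sex-linked transcripts.

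The members and the 20 gene lists (303 symbols, 263 autosomal and tested) were chosen with earlier results of these data known. Named were the marker genes, the 12 largest differences each way with arrays apart, 8 genes per class and direction by WT sex difference, up to 5 per list by p, and defining markers; the 19 genes outside both sexes and other genes named for contrast were chosen after their values were seen. Alternatives changed the pseudocount, filter, normalization, probe set rule, array weights, arrays in the fit and covariates. Figures were drawn with matplotlib 3.10.9 in Python 3.11.15.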

Additional observations from a re-analysis of the deposited data

Results flagged for a closer look

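The difference between KO ovary and WT testis was itself different between stages in 837 autosomal genes, by the test of the E14.5 difference minus the E12.5 difference (limma, adjusted p under 0.05), and in 44 of the 144 named genes tested. Values in brackets are that stage difference on the log2 scale, and a positive one means that KO ovary stood higher over WT testis at the later stage. Some of these genes were named for a large difference at E14.5, which the stage difference contains. Positive values were those of M1ap (5.04), Stra8 (5.03), Spdya (4.58), Terb1 (4.32), Tex101 (4.27), Dmc1 (3.93), Inca1 (3.89), Figla (3.74), Meiob (3.38), Syce1 (2.43), Rec8 (1.85), Adamdec1 (4.61), Cst12 (2.87), Krt19 (1.6) and Emcn (1.43). Negative values were those of Star (-4.76), Hsd3b1 (-3.51), Scarb1 (-2.8), Cyp11b1 (-2.49), Fdx1 (-1.67), Gramd1b (-1.96), Mrap (-1.3), Morc1 (-4.43), Piwil4 (-3.88), Dnd1 (-3.88), Tdrd5 (-3.3), Prdm1 (-1.85), Dnmt3l (-1.47), Tdrd9 (-1.04), Hsd17b3 (-2.96), Unc5b (-1.45), Nrp1 (-0.95), Pdgfrb (-1.4), Acta2 (-1.38), Nes (-1.95) and Th (-1.73). The remaining negative values were those of Ephx1 (-4.19), Kazald1 (-2.23), Hspa1a (-3.57), Hspa1b (-3.55), Hao2 (-3.46), Gsta2 (-2.9), Wif1 (-2.76) and Sstr4 (-1.68). The nearly alike WT testis arrays of E12.5 bear on all of these: with both averaged into 1 sample, Adamdec1, Dmc1, Hspa1a, Hspa1b and M1ap alone of the 44 stayed past the threshold. No array could be singled out as an outlier by a test, since each group holds 2.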

How the results depend on the processing

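In KO ovary minus WT testis no named gene called in the main fit or in an alternative changed sign between them. Named genes called in neither could change sign. Calb1 went from 0.70 (log2) to -0.14 without WT testis replicate 2, and Gli1 from -0.39 to 0.27 without WT testis replicate 1. The counts moved as well. What is said of called genes does not extend to KO ovary minus WT ovary, where some signs hung on 1 WT ovary array. Cyp11a1 stood at -3.17 (log2) without WT ovary replicate 1 and 3.31 without replicate 2, and Star at -1.23 and 2.99. With 2 arrays a group, calls depend on the shared estimate of the spread. Low intensities near the pseudocount limit the folds of dim genes, and opposite-sex RNA in single arrays shifts the WT yardsticks; their part in single calls was not tested.

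The main counts were 544 for KO ovary against WT testis (186 higher, 358 lower), 438 for WT ovary against WT testis, 60 for KO ovary against WT ovary and 837 for the stage difference. Array weights gave 1016 (407 higher, 609 lower) for the first and 2358 for the stage difference, with 4 ovary-high genes between. With only the arrays of each contrast, 306 were higher, WT ovary against WT testis gave 0 (limma; 1845 genes had an unadjusted p under 0.05 in the fit of all arrays), KO ovary against WT ovary 5 and the stage difference 1913, so that every class of sex-differing gene held 0. With the WT testis E12.5 arrays averaged, 122 were higher, 38 differed between KO ovary and WT ovary, 20 passed for the stage difference, 52 ovary-high genes were ovarian and 1 testis-high gene was at testis level. With opposite-sex RNA as a covariate, 286 were higher, WT ovary against WT testis gave 788, KO ovary against WT ovary 123 and the stage difference 1387; 49 ovary-high and 16 testis-high genes were at testis level, 170 ovary-high genes were ovarian and 4 lay between. Without the E14.5 arrays above 10% opposite-sex RNA the first count was 334 (198 lower), KO ovary against WT ovary 93 and the stage difference 215; 34 ovary-high and 19 testis-high genes were at testis level, and 6 and 4 lay between. A pseudocount of 16 left 2 testis-high genes at testis level and 2 ovary-high genes between, and the mean of probe sets gave 508 for the stage difference and 1 testis-high gene at testis level. The cause of these shifts was not tested.

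Leaving out single arrays gave 199 to 259 for KO ovary against WT testis (44 to 93 higher, 138 to 198 lower), 83 to 859 for WT ovary against WT testis, 15 to 106 for KO ovary against WT ovary and 46 to 2054 for the stage difference. The classes ran from 7 to 43 and 0 to 21 at testis level (ovary-high, testis-high), 24 to 137 and 33 to 248 ovarian, and 0 to 8 and 0 to 8 between. With a replicate block the counts were 548, 441, 50 and 783. Same-numbered arrays deviated together at r = 0.117 for KO ovary with WT testis and -0.186 for KO ovary with WT ovary, so the numbers were not taken to pair the arrays; the crossed pairing, added after seeing the data, gave 60 for KO ovary against WT ovary. The choice of E12.5 sex genes without WT ovary E12.5 replicate 1, also added then, gave 1211 ovary-high genes against 47 and 296 testis-high genes against 17. All other settings left each of these counts within 1.5 times.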
